A study of Mus musculus with 20 samples.

Results

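The genes described here are the p53 inhibitor Mdm2 and members of the Bcl2 family that set the threshold for apoptosis, followed across tissues and sphere cultures of mice that carry a MYCN transgene. They were chosen by name, with no measured value in the rule: 9 genes (Trp53, Mdm2, Bcl2, Bcl2l1, Mcl1, Bax, Bak1, Bbc3 and Pmaip1). Of these, 7 genes had at least 1 probe set that the platform annotation pairs with their symbol, 22 probe sets in all, among 18193 genes named in the same way. No probe set was named for Trp53 or Bax in that annotation, and both were not analysed here.

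RNA of 20 samples was hybridised to Affymetrix mouse arrays, 1 array per sample. Ganglia came from wild-type mice (4 samples) and from mice with the MYCN transgene on both alleles, called homozygous (2 samples). Tumors came from homozygous mice (4 samples), from homozygous mice that also lacked Mdk (2 samples) and from mice with a single transgenic allele, called hemizygous (4 samples). Sphere cultures were wild-type neurospheres (2 samples) and hemizygous tumorspheres (2 samples). Mdk encodes midkine, a secreted heparin-binding growth factor. The labels give a mixed background with the strain 129+Ter/SvJcl for the mice, which were maintained by crosses to wild-type animals of that strain. The labels give no age, no promoter for the transgene, no tissue of origin for the neurospheres and no word on whether each sample is a different animal or culture. The p-values therefore reflect only how much samples of the same group spread, and part of that spread may be technical. Each gene has 1 estimate of this spread, shared by all 7 groups and not only by those compared.

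p53 is a transcription factor that stops the cell cycle or starts apoptosis after DNA damage and other stress. Mdm2 is the ubiquitin ligase that marks p53 for degradation, and it is itself a target gene of p53, so the pair forms a feedback loop. Among the Bcl2 family, Bcl2, Bcl2l1 (Bcl-xL) and Mcl1 hold back the pore-forming proteins Bax and Bak1 at the mitochondrion, while Bbc3 (Puma) and Pmaip1 (Noxa), both induced by p53, bind the protective members and release the pore-formers. In neuroblastoma, which arises from sympathetic precursors, MYCN is known to act on MDM2 as a target gene and to lower the threshold for apoptosis.

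MYCN and its relatives bind the E-box CACGTG, and p53 binds pairs of a short half-site. Both were searched in promoter windows from RefSeq on GRCm38.p6, each running from 250 bases before to 50 bases after a start site, on both strands, which read alike for both motifs. Among 32851 windows of 300 bases, 7.15% held CACGTG, 8.36% a p53 half-site and 0.0731% a pair of half-sites. Of the members with windows, Mdm2 had 1 window with 1 half-site and no CACGTG. Bbc3 had 3 windows, of which the third held 1 CACGTG, starting 64 bases before the start site. Neither motif was present in the windows of Bcl2, Bcl2l1, Mcl1 and Bak1. The windows of Mdm2 and Bbc3 are printed because they hold these matches and because both genes were higher in tumorspheres than in neurospheres. Capitals mark the half-site in Mdm2 (chr10:117710709-117711008, minus strand) and the E-box in Bbc3 (chr7:16310181-16310480, plus strand). A match is a description of the letters, and binding was not measured.
Mdm2: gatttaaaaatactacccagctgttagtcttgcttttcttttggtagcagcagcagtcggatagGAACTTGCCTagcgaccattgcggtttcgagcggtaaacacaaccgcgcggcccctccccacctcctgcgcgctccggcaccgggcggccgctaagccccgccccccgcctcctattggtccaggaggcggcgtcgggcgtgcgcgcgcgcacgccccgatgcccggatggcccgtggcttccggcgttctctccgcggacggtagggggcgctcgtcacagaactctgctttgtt
Bbc3: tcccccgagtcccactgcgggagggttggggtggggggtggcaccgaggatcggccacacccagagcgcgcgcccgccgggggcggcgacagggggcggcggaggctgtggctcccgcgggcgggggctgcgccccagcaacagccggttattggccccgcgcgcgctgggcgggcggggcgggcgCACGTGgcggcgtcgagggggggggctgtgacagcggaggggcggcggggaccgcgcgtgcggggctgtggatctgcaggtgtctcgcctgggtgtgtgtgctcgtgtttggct
The well-known p53-responsive promoter of Mdm2 lies in its first intron and so beyond such a window.

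Values below are probe set intensities on the linear scale of the deposited table, where every array has a mean of 100.001 after trimming 2% of the probe sets at each end. Each gene is represented by its brightest probe set unless another is named. Tests were made on log2(intensity + 16) with limma in 1 model of all arrays. A gene is called changed at a Benjamini-Hochberg adjusted p under 0.05 over 15140 tested genes. Differences are log2 values on that scale, with standard errors (SE), and they understate the change of dim genes. In tissue, fewer cells of a type and less RNA per cell cannot be told apart.

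Several features of the arrays moved with the groups. For the beta-actin control, signal near the 3' end over signal near the 5' end, a measure of RNA integrity, averaged 6.88 ± 1.96 (SD, n = 4) for wild-type ganglia. It averaged 4.35 ± 0.467 (SD, n = 2) for homozygous ganglia, against 2.55 ± 0.174 (SD, n = 4) for the homozygous and 2.20 ± 0.337 (SD, n = 4) for the hemizygous tumors. Neurospheres averaged 5.78 ± 2.83 (SD, n = 2) and tumorspheres 2.49 ± 0.214 (SD, n = 2). The ratio for the GAPDH control differed less, at 3.42 ± 0.682 (SD, n = 4) for wild-type and 3.83 ± 0.115 (SD, n = 2) for homozygous ganglia. It was 3.07 ± 0.379 (SD, n = 4) for homozygous and 2.94 ± 0.191 (SD, n = 4) for hemizygous tumors. For GAPDH the neurospheres had 3.37 and 11.5, and tumorspheres averaged 2.90 ± 0.322 (SD, n = 2). Only the beta-actin ratio served as a covariate below. The summed intensity of 7 markers of dividing cells ranged from 434 to 1225 in wild-type ganglia, from 3557 to 5490.0 in homozygous ganglia and from 7559 to 9354 in both kinds of tumor with Mdk intact. The sum over 5 Schwann and satellite glia markers was 9391 to 10350.0 in wild-type ganglia and 412 to 917 in the same tumors, and that over 6 fibroblast markers was 14740.0 to 17490.0 against 2074 to 5875. Skeletal muscle actin (Acta1) was above 100 on 6 arrays, among them wild-type ganglia 1 and 2 and homozygous ganglion 2. The neurospheres lacked the sympathetic markers of the other groups: tyrosine hydroxylase (Th) was 9.72 and 14.1 there against 3097 and 3328 in tumorspheres, while Sox2, a gene of neural progenitors, was 3296 and 3783 against 1.13 and 4.81. The part of these features in the differences below was not tested, except where a value is given.

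Of the 7 measured members, 3 differed between wild-type ganglia and homozygous tumors, where 49.9% of all genes changed (23.2% higher in tumors and 26.7% lower). Of the members, Mdm2 rose and Bcl2 and Bcl2l1 fell. When hemizygous tumors were compared with those ganglia, Mdm2 again rose, Bcl2 and Bcl2l1 again fell and Pmaip1 rose, so 4 of 7 changed beside 52.7% of all genes (27% higher and 25.7% lower). These shares are near the background, and the number of changed members is no result about them. Both comparisons share the wild-type ganglia. No member changed between homozygous and wild-type ganglia, where 5.09% of all genes did (4.02% higher and 1.06% lower); 3259 genes there had an unadjusted p under 0.05. Between homozygous tumors and homozygous ganglia 2 members changed, Mdm2 higher and Bcl2l1 lower, beside 21.7% of all genes (9.37% higher and 12.3% lower).

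Between tumorspheres and neurospheres 4 of 7 members changed, with Mdm2, Bbc3 and Bcl2l1 higher and Pmaip1 lower, beside 38.4% of all genes (23.5% higher and 14.9% lower). Neurospheres differed from wild-type ganglia in 3 members, Bcl2 and Bcl2l1 lower and Pmaip1 higher, beside 39.2% of all genes (16.8% higher and 22.4% lower). Tumorspheres differed from hemizygous tumors in 1 member, Bbc3, beside 12.6% of all genes (5.59% higher and 6.99% lower). No member changed between hemizygous and homozygous tumors, where 6.25% of all genes did (3.5% higher and 2.75% lower) and 3146 genes had an unadjusted p under 0.05. The median log2 difference over the 7 members from wild-type ganglia was 0.28 for the homozygous and 0.35 for the hemizygous tumors, beside -0.12 and -0.05 over all tested genes.

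**Figure D1:**
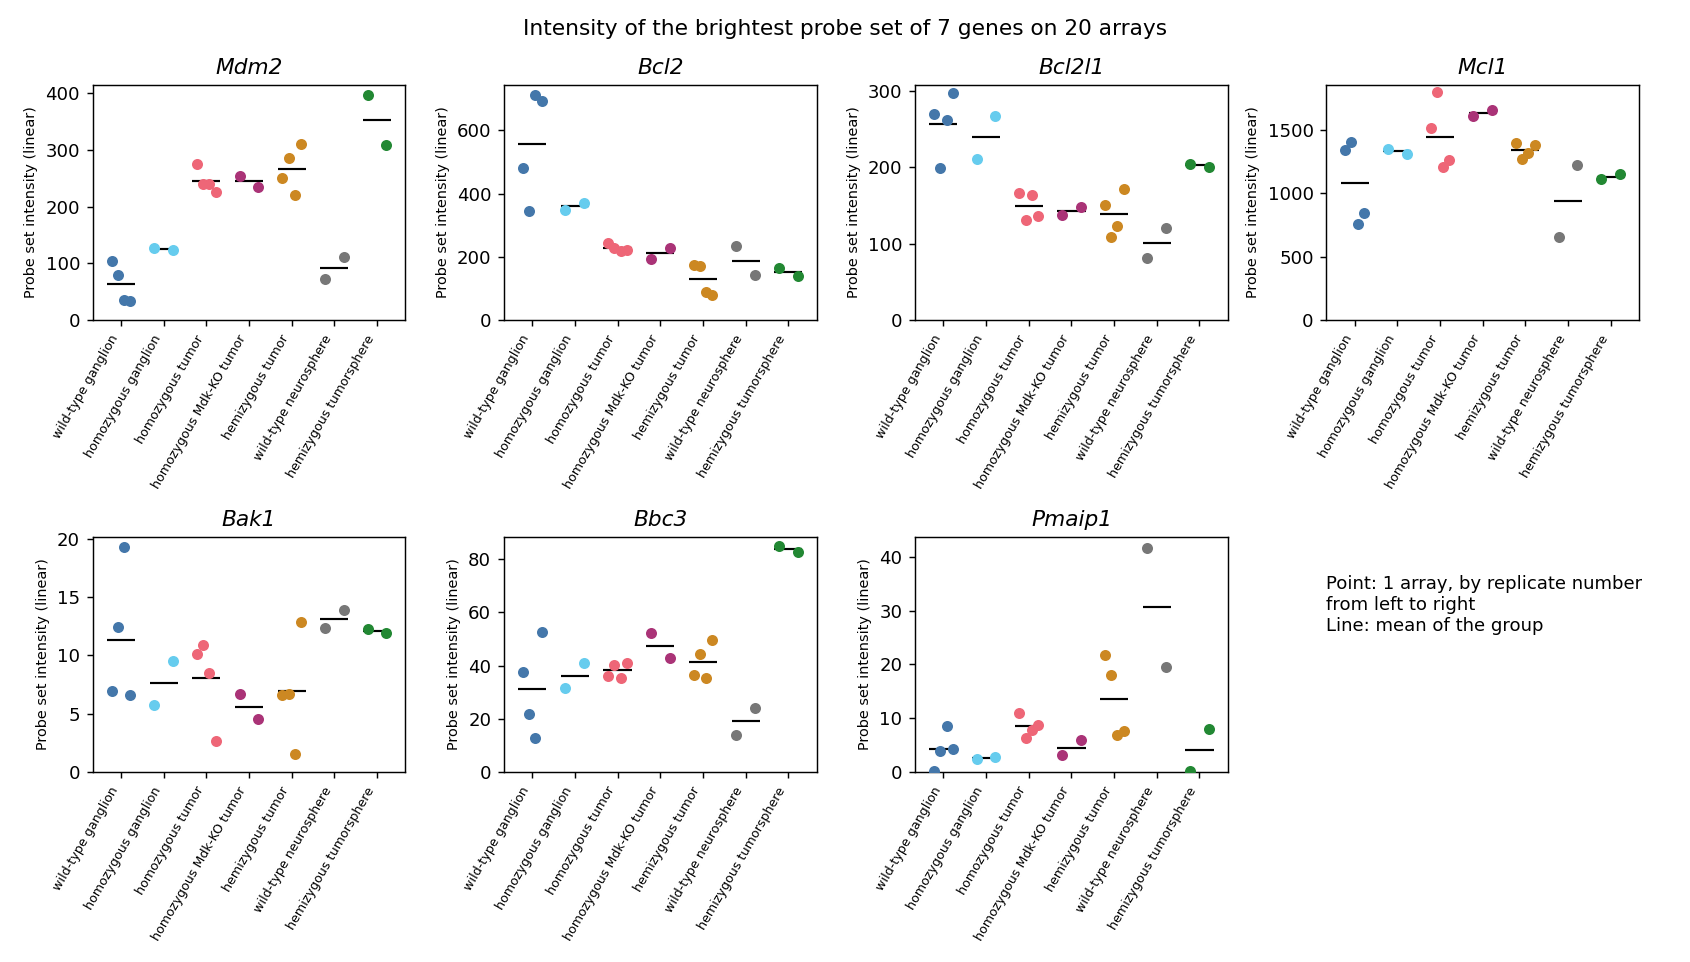
Intensity (linear axis from 0) of the brightest probe set of each of 7 genes on 20 arrays, with 1 point per array, in order of replicate number within a group, and a line at the group mean. Mdm2 is highest in tumorspheres (309 and 397) and lowest in wild-type ganglia (33.7 to 104), Bcl2 runs from 712 in a wild-type ganglion down to 79.9 in a hemizygous tumor, and Bak1 and Pmaip1 stay below 42 on every array.

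Mdm2, the inhibitor of p53, had the clearest pattern. Its intensities were 104, 79.1, 36.4 and 33.7 in wild-type ganglia 1 to 4 and 127 and 124 in homozygous ganglia. In homozygous tumors they were 275, 240.3, 240.3 and 226, and in hemizygous tumors 251.4, 287, 220.2 and 311. Every tumor was thus brighter than every ganglion, and both homozygous ganglia were brighter than every wild-type one. Spheres repeated the contrast, with 73.3 and 111 in neurospheres and 397 and 309 in tumorspheres. Mdm2 was 1.82 log2 units higher in homozygous tumors than in wild-type ganglia (SE 0.24, adjusted p = 4.6e-06) and 1.93 higher in hemizygous tumors (SE 0.24, adjusted p = 1.8e-06). Between tumorspheres and neurospheres the difference was 1.78 (SE 0.33, adjusted p = 0.00036), and the contrast in spheres minus that in hemizygous tissue was -0.15 (SE 0.41, adjusted p = 0.81).

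By the brightest probe set of Mdm2, homozygous ganglia stood between wild-type ganglia and tumors. The difference of 0.94 from wild-type ganglia (SE 0.29, adjusted p = 0.068) missed the threshold although the groups did not overlap, and it passed without wild-type ganglion 1 (1.17, adjusted p = 0.0091) or without wild-type ganglion 2 (1.06, adjusted p = 0.024). Against wild-type ganglia 3 and 4 alone it was 1.47 (adjusted p = 6.5e-05), and against 1 and 2 alone 0.41 (adjusted p = 0.40). Homozygous tumors were 0.88 above homozygous ganglia (SE 0.29, adjusted p = 0.036). Leaving out any 1 of these 6 arrays ended that call, with adjusted p between 0.054 and 0.20, while the difference stayed between 0.83 and 0.92.

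The order of Mdm2 levels was tumorspheres, hemizygous tumors, homozygous tumors, homozygous tumors with Mdk knockout, homozygous ganglia, neurospheres and wild-type ganglia. Neighbours among the 4 highest groups overlapped, as did neurospheres and wild-type ganglia, whereas the steps above and below homozygous ganglia did not overlap. Against wild-type ganglia 1 and 2 alone, Mdm2 was 1.29 higher in homozygous tumors (adjusted p = 2.9e-05), and against 3 and 4 alone 2.35 (adjusted p = 1.9e-08). With the beta-actin ratio as a covariate the same difference was 0.98 (adjusted p = 0.083), that in hemizygous tumors 0.95 (adjusted p = 0.14) and that in spheres 1.09 (adjusted p = 0.067), so this setting ended all 3 calls. Without the 6 arrays with Acta1 above 100, Mdm2 was 1.49 higher in homozygous than in wild-type ganglia (adjusted p = 0.0034). Neurospheres were 0.53 above wild-type ganglia (SE 0.29, adjusted p = 0.16), and 0.76 without wild-type ganglion 1 (adjusted p = 0.025).

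**Figure D2:**
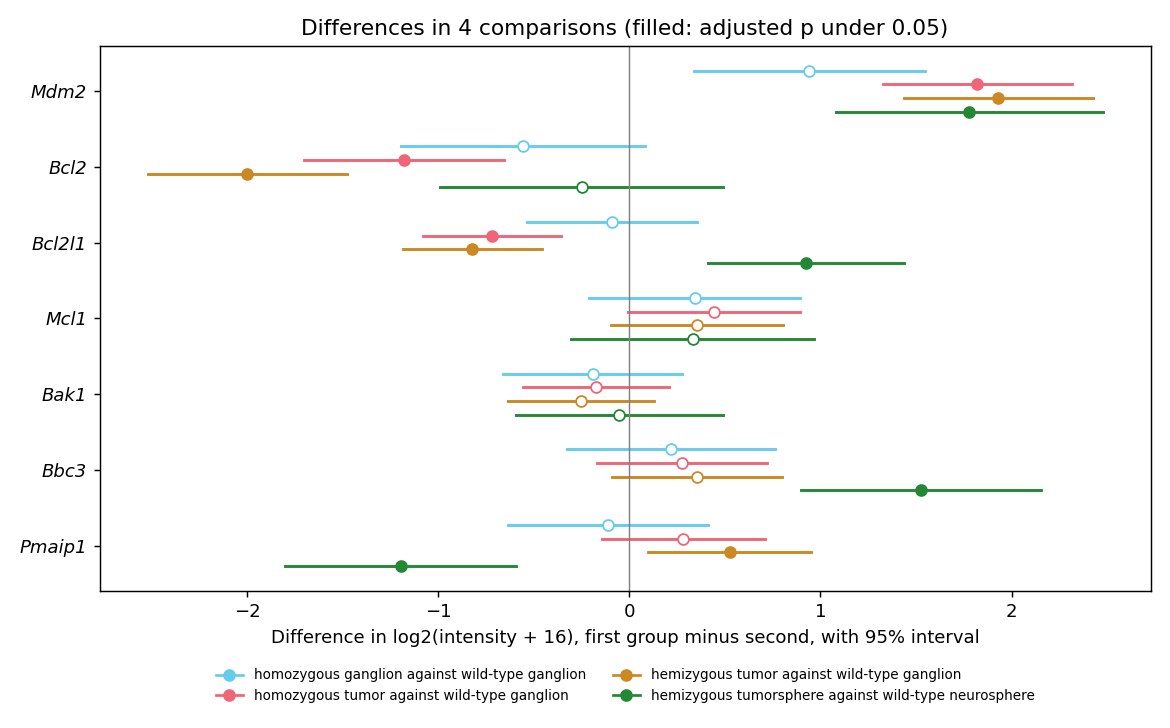
Difference in log2(intensity + 16) between the groups of 4 comparisons for each member, first group minus second, with 95% intervals from limma; filled points have an adjusted p under 0.05. Mdm2 lies between 1.78 and 1.93 in the 3 comparisons where it is called, and Bcl2l1 is below 0 in both tumor comparisons (-0.72 and -0.82) and above 0 in spheres (0.92).

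Bcl2, which keeps the outer mitochondrial membrane intact and favours the survival of neurons, was highest in wild-type ganglia, at 482, 345, 712 and 693. Homozygous ganglia had 348 and 372, inside the wild-type range. Homozygous tumors lay close together, at 243, 228, 219 and 221.5, and hemizygous tumors at 176, 171, 90.2 and 79.9. In this brightest probe set every tumor was therefore below every ganglion, and every hemizygous tumor below every homozygous one. Bcl2 fell by 1.18 on the log2 scale in homozygous tumors from wild-type ganglia (SE 0.25, adjusted p = 0.00069). In hemizygous tumors the difference was -2.0 (SE 0.25, adjusted p = 2.3e-06). In a limma fit of every probe set, 2 of 5 Bcl2 sets were called lower in homozygous tumors and 3 of 5 in hemizygous tumors. Of all probe sets, 46.7% and 47.4% were called there in either direction. The set with a mean of 168.0 read 84 to 114 in homozygous tumors, 53.6 to 103 in hemizygous tumors and 88.0 to 96.1 in homozygous ganglia. These groups overlapped in it.

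The difference in Bcl2 between hemizygous and homozygous tumors was -0.82 (SE 0.25, adjusted p = 0.059). It missed the threshold with all arrays and passed without hemizygous tumor 1 (-0.97, adjusted p = 0.040) or without hemizygous tumor 2 (-0.96, adjusted p = 0.038). Between homozygous tumors and homozygous ganglia it was -0.62 (SE 0.31, adjusted p = 0.16), with groups that did not overlap. Neurospheres had 234 and 143 and tumorspheres 166 and 139, overlapping each other (difference -0.25, SE 0.35, adjusted p = 0.63). Neurospheres were below wild-type ganglia (difference -1.47, SE 0.31, adjusted p = 0.00084), a call lost when the 5 probe sets of Bcl2 were averaged (-0.01, adjusted p = 0.96). In the order of levels, only homozygous ganglia and homozygous tumors were neighbours without overlap. With the beta-actin ratio as a covariate, the difference from wild-type ganglia was -0.41 in homozygous tumors (adjusted p = 0.54) and -1.11 in hemizygous tumors (adjusted p = 0.12).

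Bcl2l1, whose long product Bcl-xL protects mature neurons, was 269, 198, 262 and 297 in wild-type ganglia and 211 and 267 in homozygous ganglia. Homozygous tumors had 166, 131, 163 and 136, and hemizygous tumors 150.1, 109, 124 and 172. All tumors were thus below all ganglia. Neurospheres were the lowest, at 80.7 and 121, and tumorspheres had 204 and 201, above every tumor, below both homozygous ganglia and above wild-type ganglion 2. Bcl2l1 fell by 0.72 on the log2 scale in homozygous tumors (SE 0.17, adjusted p = 0.0020) and by 0.82 in hemizygous tumors (SE 0.17, adjusted p = 0.00056). In tumorspheres it rose by 0.92 over neurospheres (SE 0.24, adjusted p = 0.0057), a call lost without neurosphere 1 (0.67, adjusted p = 0.086), with the beta-actin covariate (0.57, adjusted p = 0.24) and with only the compared groups in the fit (adjusted p = 0.056).

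Neurospheres were below wild-type ganglia in Bcl2l1 (difference -1.23, SE 0.21, adjusted p = 0.00014). Homozygous tumors were below homozygous ganglia (difference -0.63, SE 0.21, adjusted p = 0.041). This call was lost without homozygous ganglion 1 (adjusted p = 0.081), homozygous ganglion 2 (-0.47, adjusted p = 0.36), homozygous tumor 2 (adjusted p = 0.084), homozygous tumor 3 (adjusted p = 0.056) or homozygous tumor 4 (adjusted p = 0.089). Tumorspheres were 0.52 above hemizygous tumors without overlap, which did not pass (SE 0.21, adjusted p = 0.13). The probe sets of Bcl2l1 differed widely in brightness. The other 3 averaged 9.92, 2.59 and 1.09 over all arrays, against 177 for the one used. When all 4 were averaged, the differences from wild-type ganglia shrank to -0.10 in homozygous tumors (adjusted p = 0.49) and -0.15 in hemizygous tumors (adjusted p = 0.31), and that between neurospheres and wild-type ganglia to -0.37 (adjusted p = 0.061). The rise in tumorspheres over neurospheres shrank to 0.28 in the same way (adjusted p = 0.22).

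Mcl1 is a short-lived protector on which neural precursors depend. Its intensities were 1338, 1405, 755 and 841 in wild-type ganglia and 1352 and 1307 in homozygous ganglia. Homozygous tumors had 1514, 1797, 1211 and 1262, and hemizygous tumors 1399, 1270, 1321 and 1379. Tumors thus overlapped wild-type ganglia 1 and 2 and exceeded 3 and 4. The differences from wild-type ganglia were 0.44 in homozygous tumors (SE 0.21, adjusted p = 0.093) and 0.35 in hemizygous tumors (SE 0.21, adjusted p = 0.17). In homozygous tumors the difference passed without wild-type ganglion 1 (0.56, adjusted p = 0.046) or without wild-type ganglion 2 (0.58, adjusted p = 0.033). Against wild-type ganglia 1 and 2 alone it was 0.06 (adjusted p = 0.84), and against 3 and 4 alone 0.83 (adjusted p = 0.0030).

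Neurospheres had Mcl1 at 657 and 1220 and tumorspheres at 1114 and 1150, so that the groups overlapped (difference 0.33, SE 0.30, adjusted p = 0.43). The other probe sets of Mcl1 gave a different picture in tumors. In a fit of every probe set, 4 of 6 were called higher in homozygous tumors than in wild-type ganglia, and 3 of 6 in hemizygous tumors. Of all 34924 probe sets tested, 46.7% and 47.4% were called there, which counts both directions. The probe set that averaged 586 over all arrays showed the largest difference of the 6. It read 314 to 399 in wild-type ganglia, 742 to 836 in homozygous tumors and 587 to 868 in hemizygous tumors, without overlap (1.17, SE 0.19, adjusted p = 4.5e-05, and 1.06, SE 0.19, adjusted p = 0.00011). It was also 1.07 higher in homozygous tumors than in homozygous ganglia (SE 0.23, adjusted p = 0.0037). In that comparison 18.8% of probe sets changed in either direction and 2 of 6 of Mcl1 rose. The brightest probe set and the next 2 carry the suffix x_at, which Affymetrix gives to sets with probes shared by several transcripts.

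With the 6 probe sets averaged, Mcl1 was called higher in homozygous tumors (0.63, adjusted p = 0.0031) and hemizygous tumors (0.64, adjusted p = 0.0024). With the beta-actin covariate its brightest set gave -0.31 (adjusted p = 0.59) and -0.52 (adjusted p = 0.40).

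**Figure D3:**
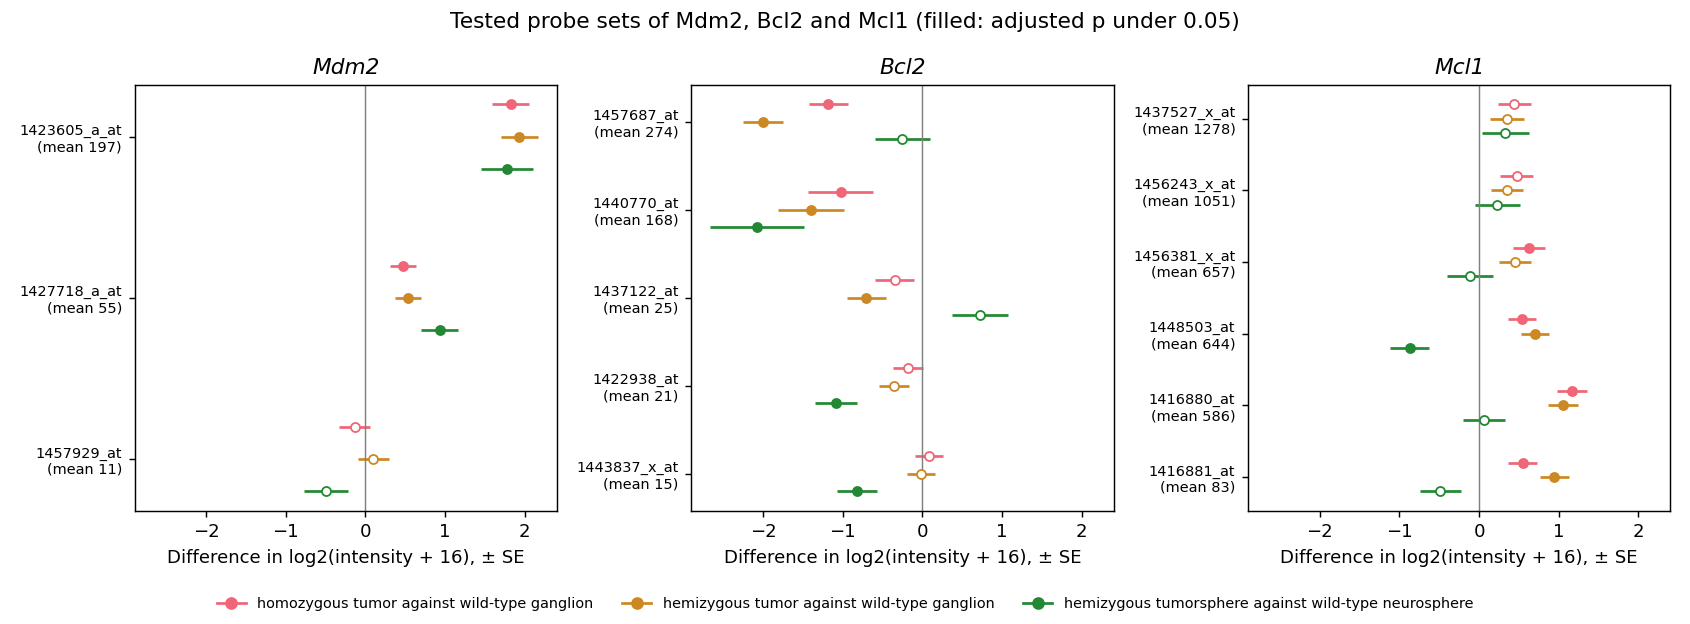
Difference in log2(intensity + 16) ± SE for each tested probe set of Mdm2, Bcl2 and Mcl1 in 3 comparisons, with the mean intensity over 20 arrays beside its name; filled points have an adjusted p under 0.05 in the fit of every probe set. The 6 probe sets of Mcl1 range from 0.44 to 1.17 in homozygous tumors against wild-type ganglia, and the one with a mean of 644 is at -0.87 in spheres.

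Probe sets disagreed in spheres too, where 32.2% of all probe sets changed in either direction. The Mcl1 set with a mean of 644 was lower in tumorspheres than in neurospheres (-0.87, SE 0.25, adjusted p = 0.011). For Bcl2, 3 of 5 probe sets were called lower in tumorspheres although the brightest was not, and the mean over the 5 was called lower as well (-0.70, adjusted p = 0.024). Of these, the set with a mean of 168.0 read 244 and 601 in neurospheres against 78.4 and 79.8 in tumorspheres (-2.07, SE 0.58, adjusted p = 0.010). The same set spread from 77.4 to 497 among wild-type ganglia. Between neurospheres and wild-type ganglia, where 34.4% of probe sets changed, 2 of 5 Bcl2 sets were lower and 1, with a mean of 15.3, was higher (1.16, SE 0.22, adjusted p = 0.00034). For Mdm2, the set with a mean of 55.1 rose with the brightest set in homozygous tumors (0.47, SE 0.16, adjusted p = 0.025), hemizygous tumors (0.54, SE 0.16, adjusted p = 0.011) and tumorspheres (0.93, SE 0.23, adjusted p = 0.0042). In homozygous ganglia this second set was not called above wild-type ganglia (0.04, SE 0.20, adjusted p = 0.93), so the step seen in the brightest set was absent. It was 0.43 higher in homozygous tumors than in homozygous ganglia, which did not pass (SE 0.20, adjusted p = 0.15). The remaining set averaged 10.8 and passed in none of these comparisons.

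Bak1, which forms pores in the outer mitochondrial membrane, was dim throughout. Its brighter probe set averaged 9.09 over the 20 arrays and lay, at the median, at percentile 36.3 of its array. Intensities ran from 6.58 to 19.3 in wild-type ganglia, 2.64 to 10.9 in homozygous tumors, 1.52 to 12.9 in hemizygous tumors, 12.4 to 13.9 in neurospheres and 11.9 to 12.3 in tumorspheres. No comparison called Bak1. The largest difference was 0.32 between tumorspheres and hemizygous tumors (SE 0.22, 95% interval -0.15 to 0.78, adjusted p = 0.42). At this brightness a modest change could not have been seen.

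Bbc3, the p53 target Puma, stood out in tumorspheres. It read 84.8 and 82.7 there against 13.9 and 24.1 in neurospheres, 36.4, 44.2, 35.2 and 49.8 in hemizygous tumors and 36.1, 40.2, 35.3 and 41.0 in homozygous tumors. The tumorspheres were thus above every other array, the next being wild-type ganglion 4 at 52.7. Wild-type ganglia spread most, at 37.7, 21.8, 12.6 and 52.7. Bbc3 rose by 1.53 in tumorspheres over neurospheres (SE 0.30, adjusted p = 0.00056). This was 1 of 2 member calls that passed in every alternative setting tried.

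The difference of Bbc3 between tumorspheres and hemizygous tumors was 0.81 (SE 0.26, adjusted p = 0.049), just inside the threshold. It was lost without hemizygous tumor 1 (adjusted p = 0.11), 2 (0.079) or 3 (0.086) and without tumorsphere 1 (0.24) or 2 (0.22), with the difference between 0.75 and 0.83. Tumors did not pass against wild-type ganglia (homozygous 0.28, SE 0.21, adjusted p = 0.29, and hemizygous 0.35, SE 0.21, adjusted p = 0.17). Both passed without wild-type ganglion 4 (0.48, adjusted p = 0.047, and 0.56, adjusted p = 0.022). Neurospheres against wild-type ganglia gave -0.37 (SE 0.26, adjusted p = 0.28), and -0.58 without wild-type ganglion 3 (adjusted p = 0.048).

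Pmaip1, the p53 target Noxa, was near the bottom of most arrays, with a mean of 9.45 and a median percentile of 28.8. Neurospheres were the exception, at 41.7 and 19.6. Tumorspheres had 0.248 and 8.01, wild-type ganglia 0.242, 3.91, 8.62 and 4.33, and homozygous tumors 11.0, 6.32, 7.76 and 8.78. Hemizygous tumors 1 and 2, at 21.8 and 17.9, were brighter than 3 and 4, at 6.89 and 7.65. Pmaip1 was 1.18 higher in neurospheres than in wild-type ganglia (SE 0.25, adjusted p = 0.00097), and this was the other call that passed in every alternative setting in which the gene was tested. The median percentile of Pmaip1 lay below that of the main filter, so the gene was tested because of its brighter arrays. The brightest were both neurospheres and hemizygous tumors 1 and 2, from groups in which it was called higher than in wild-type ganglia. The call in neurospheres also passed with no filter. The filter at the 60th percentile left Pmaip1 untested. It was lower in tumorspheres than in neurospheres (difference -1.20, SE 0.29, adjusted p = 0.0028), which was lost without neurosphere 1 (-0.85, adjusted p = 0.061), without tumorsphere 1 (-0.92, adjusted p = 0.056), with only the compared groups in the fit (adjusted p = 0.055) and with the beta-actin covariate (-0.70, adjusted p = 0.20).

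The rise of Pmaip1 in hemizygous tumors over wild-type ganglia was small, and the groups overlapped (0.53, SE 0.20, adjusted p = 0.037). It did not pass without wild-type ganglion 1 (0.42, adjusted p = 0.11), 2 (adjusted p = 0.056) or 4 (adjusted p = 0.056), nor without hemizygous tumor 1 (0.40, adjusted p = 0.13) or 2 (0.45, adjusted p = 0.10).

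Knockout of Mdk in homozygous tumors changed none of the members. Mdk itself was 42.6 and 35.5 in the knockout tumors against 268 to 297 in homozygous tumors, and it was the only gene called, 0.00661% of those tested, while 202 genes had an unadjusted p under 0.05. Mdm2 was 254 and 236 in the knockout tumors, within the range of the homozygous tumors. The difference was -0.002 (95% interval -0.61 to 0.60), so that a change of the size seen between tumors and ganglia lies outside the interval. Mcl1 differed by 0.19 (95% interval -0.36 to 0.74), Bcl2 by -0.10 (95% interval -0.74 to 0.54) and Bcl2l1 by -0.05 (95% interval -0.49 to 0.39). Bbc3 was 52.2 and 42.8, above all homozygous tumors, with a difference of 0.23 (95% interval -0.32 to 0.77). Pmaip1 was 3.19 and 5.87, below all homozygous tumors, with a difference of -0.25 (95% interval -0.77 to 0.27). These intervals are wide. They rest on 2 knockout tumors and on 1 spread per gene shared by all 7 groups. For Mdm2 the SD on the log2 scale was 0.63 in wild-type ganglia, against 0.11 in homozygous and 0.07 in knockout tumors.

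Tumor tissue and tumorspheres were each set against a wild-type counterpart, and the difference between the contrasts was tested in the same model. It was called for 32.5% of all genes and for 4 of 7 members. Bcl2l1 was lower in hemizygous tumors than in ganglia but higher in tumorspheres than in neurospheres (difference of contrasts 1.74, SE 0.30, adjusted p = 0.00020). For the brightest set of Bcl2 the contrast was -2.0 in tissue and -0.25 in spheres, with a difference of contrasts of 1.75 (SE 0.43, adjusted p = 0.0043). In 3 of its other 4 sets the contrast was instead lower in spheres than in tissue, with -2.07 against -1.40 for the set with a mean of 168.0, and for those sets the difference was not tested. For Bbc3 the difference was 1.17 (SE 0.37, adjusted p = 0.020) and for Pmaip1 -1.72 (SE 0.35, adjusted p = 0.00096). The wild-type counterparts differed in cell type markers, since 7 sympathetic neuron markers summed to 60.7 and 71.5 in neurospheres and to 12720.0 to 28190.0 in wild-type ganglia; their part in these differences was not tested.

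Around the members, 5 further lists of the pathway were counted. Of 9 further pro-death Bcl2 family genes, all tested, 4 rose and 0 fell in homozygous tumors against wild-type ganglia (median 0.90), and 4 rose in hemizygous tumors (median 0.59). Over all genes 23.2% and 27% rose in these comparisons, with medians of -0.12 and -0.05. Hrk, a neuronal BH3-only gene, went from 21.5 ± 17.0 (SD, n = 4) in wild-type ganglia to 191 ± 47.0 (SD, n = 4) in homozygous tumors (2.56, SE 0.27, adjusted p = 3.7e-07). It was already 66.7 ± 7.74 (SD, n = 2) in homozygous ganglia (1.26, SE 0.33, adjusted p = 0.029), the only gene of the list called there. Bid, which links death receptors to mitochondria, rose by 2.17 in hemizygous tumors (SE 0.25, adjusted p = 7.2e-07), and Bcl2l13 by 1.45 in homozygous tumors (SE 0.18, adjusted p = 2.5e-06). In tumorspheres against neurospheres 4 of 9 rose as well, beside 23.5% of all genes, with Hrk at 124 ± 13.3 (SD, n = 2) against 26 ± 6.72 (SD, n = 2). Of 6 further pro-survival members only 2 were tested, and neither was called in any comparison.

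Of 27 tested regulators of p53, 15 rose and 1 fell in homozygous tumors against wild-type ganglia (median 0.63), and the counts were the same in hemizygous tumors (median 0.76). Over all genes 23.2% rose and 26.7% fell in homozygous tumors, while 27% rose and 25.7% fell in hemizygous ones. Aurka, a mitotic kinase that phosphorylates p53, rose from 19.2 ± 11.96 (SD, n = 4) to 557 ± 172 (SD, n = 4) in homozygous tumors, and the checkpoint kinase gene Chek1 from 66.7 ± 28.8 (SD, n = 4) to 581 ± 43.1 (SD, n = 4). Both genes also serve dividing cells, whose marker sums were higher in the same groups. Chek1 and Aurka were among 3 of 27 regulators called higher in homozygous ganglia, beside 4.02% of all genes (2.09, SE 0.25, adjusted p = 2.5e-05, and 2.39, SE 0.33, adjusted p = 0.00012). Ppp1r13b, which directs p53 to apoptosis genes, fell by 0.76 in homozygous tumors (SE 0.23, adjusted p = 0.0099) and was 426 ± 111 (SD, n = 2) in tumorspheres against 44.6 ± 4.29 (SD, n = 2) in neurospheres (2.84, SE 0.32, adjusted p = 1.9e-06). Mdm4, the close relative of Mdm2, was singled out after its values were seen. It rose by 1.29 in homozygous tumors (SE 0.15, adjusted p = 2.0e-06), by 1.31 in hemizygous tumors (SE 0.15, adjusted p = 1.2e-06) and by 0.63 in tumorspheres over neurospheres (SE 0.22, adjusted p = 0.028).

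**Figure D4:**
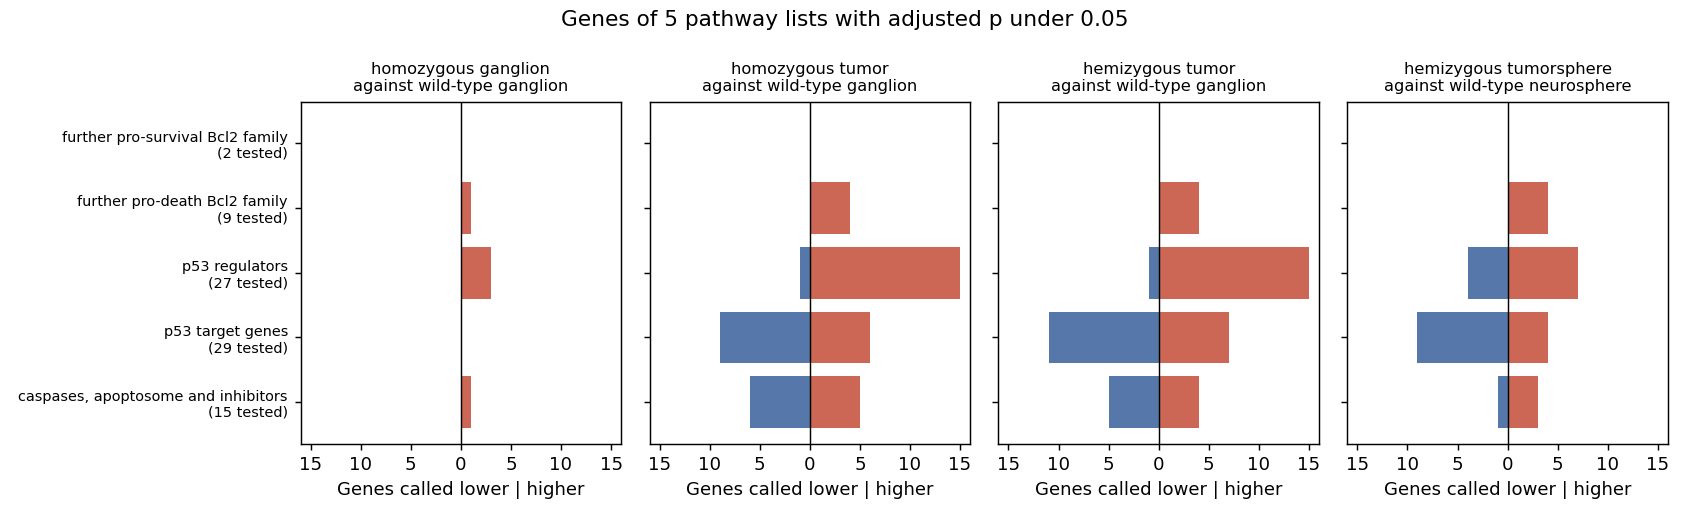
Number of genes called higher (right of 0) or lower (left of 0) at an adjusted p under 0.05 in each of 5 pathway lists, in 4 comparisons, with the number tested beside the list name. Regulators of p53 show 15 genes higher and 1 lower in both tumor comparisons, whereas p53 target genes show 6 higher and 9 lower in homozygous tumors.

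Target genes of p53 were called at shares close to those of all genes in homozygous tumors. Of 29 tested, 6 rose and 9 fell in homozygous tumors (median -0.37) and 7 rose and 11 fell in hemizygous tumors (median -0.04) against wild-type ganglia. The shares over all genes are those given for the regulators. Perp, a membrane protein gene, fell from 116 ± 24.5 (SD, n = 4) in wild-type ganglia to 15.3 ± 8.04 (SD, n = 4) in homozygous tumors, while Pidd1, a caspase activator, rose from 9.41 ± 7.26 (SD, n = 4) to 32.5 ± 5.98 (SD, n = 4). None of the 29 was called by limma in homozygous ganglia, beside 5.09% of all genes. In tumorspheres against hemizygous tumors 5 rose and 0 fell, beside 5.59% and 6.99% of all genes. Among them the cell cycle inhibitor Cdkn1a was 1052 ± 508 (SD, n = 2) against 153 ± 70.3 (SD, n = 4) (2.67, SE 0.39, adjusted p = 0.00014), and Sesn2 was 188 ± 63.2 (SD, n = 2) against 19.7 ± 13.6 (SD, n = 4). In neurospheres against wild-type ganglia 12 rose and 4 fell, beside 16.8% and 22.4% of all genes, with Sesn2 again among those that rose (2.93, SE 0.48, adjusted p = 8.6e-05). In tumorspheres against neurospheres 4 rose and 9 fell, beside 23.5% and 14.9% of all genes (median -0.58, against 0.11 over all genes).

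Downstream of mitochondria, 15 genes of caspases, the apoptosome and its inhibitors were tested. In homozygous tumors 5 rose and 6 fell, and in hemizygous tumors 4 rose and 5 fell. These counts stand beside 23.2% and 26.7% of all genes in homozygous tumors and 27% and 25.7% in hemizygous tumors, so that the counts of genes that rose are near the background. Birc5 (survivin), which acts in both apoptosis and mitosis, rose from 44.9 ± 18.7 (SD, n = 4) in wild-type ganglia to 439 ± 28.7 (SD, n = 4) in homozygous tumors, and Casp2 from 230.0 ± 54.9 (SD, n = 4) to 664 ± 110.1 (SD, n = 4). Diablo (Smac), which frees caspases from their inhibitors, fell from 831 ± 113 (SD, n = 4) to 387 ± 12.8 (SD, n = 4). Birc3, an inhibitor on the list, fell in homozygous tumors as well, from 127 ± 42.6 (SD, n = 4) to 29.8 ± 12.7 (SD, n = 4) (-1.64, SE 0.30, adjusted p = 0.00018). Cytochrome c (Cycs) fell from 5030 ± 1199 (SD, n = 4) to 2506 ± 551 (SD, n = 4) in hemizygous tumors. In spheres 3 rose and 1 fell, beside 23.5% and 14.9% of all genes, with Birc5 at the smallest p (3.38, SE 0.31, adjusted p = 1.3e-07).

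The 2 tested genes nearest to each member were found by the root mean square difference of log2 values, each gene standardised over the 20 arrays, where the median over all genes lay between 1.33 and 1.42. Nearest to Mdm2 were Smarca4 (0.18), an ATPase of the SWI/SNF chromatin remodellers, and Prpf8 (0.21), a core spliceosome component. Smarca4 ran from 196 ± 92.3 (SD, n = 4) in wild-type ganglia through 489 ± 46.9 (SD, n = 2) in homozygous ganglia to 1062 ± 99.1 (SD, n = 4) in homozygous tumors, and it reached 1520.0 ± 179 (SD, n = 2) in tumorspheres. Nearest to Bcl2 were Sc5d (0.26), an enzyme of sterol synthesis, and Cpeb3 (0.28), an RNA-binding protein. Sc5d averaged 143 ± 36.4 (SD, n = 4) in hemizygous tumors, against 431 ± 69.2 (SD, n = 4) for ganglia of wild-type mice. The nearest genes of the other members were less close, with values of 0.39 to 0.49 for Bcl2l1 (Hspa12a, Rcan3), Mcl1 (Ski, Rnf149), Bbc3 (Zfp646, Plppr2) and Pmaip1 (Mfsd1, Qk), and 0.67 and 0.72 for Bak1 (B9d1os, Pyroxd2). No member was among the nearest genes of another.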

How the data were processed

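The deposited intensity of each probe set is on a linear scale. Per the labels, biotinylated cRNA was made from 40 ng of RNA with 2 cycles of amplification, which can enlarge differences in RNA integrity. The equal trimmed means show that the authors scaled the arrays. The software that summarised the probes is not named in these sources. Of 45101 probe sets, 64 controls were left out. Of the rest, 34945 had 1 gene symbol, 932 several and 9160 none. Of the single symbols, 34741 were matched by gene identifier (GRCm38.p6), and the symbol found there was used.

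Intensities were taken as log2(intensity + 16) and not normalized again, since array medians spanned 0.33, under the limit of 0.5. A gene was tested if its brightest probe set lay above the 40th percentile on at least 2 arrays. The model in limma 3.58.1 (R 4.3.3, lmFit and eBayes) had 7 group means and 13 residual degrees of freedom, with 9 two-sided contrasts. The steps were tested on simulated data. No array repeated another (highest correlation 0.9911). The number of arrays limits the precision. Members, pathway lists and markers were chosen with earlier results of these data known. From each pathway list and comparison, at most 2 genes per direction are named, by smallest p, apart from Mdm4. The counts of members called and the member differences were recomputed with other settings. Arrays were centred on their medians or quantile normalized, and the pseudocount was 1 or 64. The filter was dropped or set at the 60th percentile, and probe sets were averaged. Other fits used only the compared groups, a replicate block, the beta-actin ratio as a covariate or subsets of wild-type ganglia. Arrays were also left out by Acta1 or 1 at a time. The pathway lists, the fit of every probe set, the difference of contrasts and the nearest genes were computed once.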

Additional observations from a re-analysis of the deposited data

Results flagged for a closer look

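For 4 members the contrast of tumorspheres against neurospheres differed from that of hemizygous tumors against wild-type ganglia, by a test of the difference itself. The same test called 32.5% of all genes. The log2 difference, spheres minus tissue, was 1.75 for Bcl2 (adjusted p = 0.0043), 1.74 for Bcl2l1 (adjusted p = 0.00020), 1.17 for Bbc3 (adjusted p = 0.020) and -1.72 for Pmaip1 (adjusted p = 0.00096). The value for Bcl2 is that of its brightest probe set. In 3 of the other 4 sets the contrast was lower in spheres than in tissue (-2.07 against -1.40, -1.09 against -0.36 and -0.82 against -0.01), and in the fourth it was higher (0.73 against -0.70). With probe sets averaged, Bcl2 was called lower in tumorspheres than in neurospheres (-0.70, adjusted p = 0.024) and the rise of Bcl2l1 was 0.28 (adjusted p = 0.22). Each contrast in spheres rests on 2 arrays per group. The neurospheres had a sympathetic marker sum of 60.7 to 71.5 and a neural progenitor sum of 5743 to 6068, against 12720.0 to 28190.0 and 987 to 1455 in wild-type ganglia, and the part of this in the result was not tested. Among 21 checks of groups of 4 arrays, no member had an array standing apart from the other 3. Such a check cannot see a split of 2 arrays against 2, which wild-type ganglia showed in Mdm2, Bcl2 and Mcl1.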

How the results depend on the processing

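For the 63 member values (7 members in 9 comparisons), 13 other settings and the leaving out of each array gave 1128 values. Of these 995 kept direction and side of the threshold, 55 lost a call, 31 gained one, 47 changed sign without a call in either setting, and 0 reversed a call. Of 17 calls, 2 passed wherever the gene was tested. The counts of members called that moved most were as follows, and the cause was not tested. Counts over all genes moved with the settings too and are given beside these. With the beta-actin ratio as a covariate, the members called were 1 in homozygous tumors against wild-type ganglia, 2 in hemizygous tumors, 1 in homozygous tumors against homozygous ganglia and 1 in spheres. Of 15140 genes, those called went in the same order from 7561 to 3558, 7978 to 3095, 3283 to 3050 and 5811 to 2825. With only the compared groups there were 4 in homozygous tumors against homozygous ganglia, 1 in hemizygous against homozygous tumors and 2 in spheres. The genes called went from 3283 to 6317, from 946 to 1974 and from 5811 to 4290. Homozygous against wild-type ganglia had 1 without arrays with Acta1 above 100, and 3 with wild-type ganglia 3 and 4 only. Over all genes that comparison went from 770 calls to 3120 and 5315. Homozygous tumors against homozygous ganglia had 1 under quantile normalization, median centring, a mean over probe sets and without Acta1 arrays, and 0 with a pseudocount of 1. In the same order 3207, 3104, 3468 (of 14618), 1877 and 2644 genes were called. Hemizygous against homozygous tumors had 1 under quantile normalization and median centring, beside 986 and 870 genes. Neurospheres against wild-type ganglia had 1 with a mean over probe sets, beside 5835 of 14618 genes. Tumorspheres against hemizygous tumors had 0 under quantile normalization, a pseudocount of 1, no filter and without Acta1 arrays, beside 1974, 1748, 1876 (of 18193) and 2554 genes. Smaller shifts in the count of members were 4 in homozygous tumors against wild-type ganglia (from 3) under quantile normalization, without Acta1 arrays and with ganglia 3 and 4 only. In hemizygous tumors (from 4) they were 5 under quantile normalization and 3 with a pseudocount of 64 or only the compared groups. Neurospheres against wild-type ganglia (from 3) had 4 without Acta1 arrays, with ganglia 1 and 2 only and with ganglia 3 and 4 only. The filter at the 60th percentile left Bak1 and Pmaip1 untested, and the loss of Pmaip1 lowered the counts in hemizygous tumors, spheres and neurospheres by 1 each. With probe sets averaged the count in spheres stayed at 4, with Bcl2 gained and Bcl2l1 lost, as did the count of 3 in homozygous and of 4 in hemizygous tumors, with Mcl1 gained and Bcl2l1 lost. Without Acta1 arrays or with ganglia 3 and 4 only the count in hemizygous tumors stayed at 4, with Mcl1 gained and Pmaip1 lost. Leaving out 1 array gave 3 to 4 members for both tumors against wild-type ganglia and for neurospheres, 2 to 4 in spheres, and 0 to 1 in the others except the Mdk knockout, with 0 throughout.

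With the replicate block the members called were 1 in homozygous tumors against homozygous ganglia, where Bcl2l1 had an adjusted p of 0.055, and 3 for hemizygous tumors set against ganglia of wild-type mice, where Pmaip1 had 0.056; no other call changed. Correlations between the deviations of same-numbered samples from their group means ran from -0.32 to 0.28. In homozygous tumors against wild-type ganglia they ran from 0.067 to 0.25, and in hemizygous tumors against those ganglia from -0.27 to -0.033. With 2 arrays in a group the deviations mirror each other, so this check cannot settle whether same-numbered samples share a batch or pairing. The labels state none. Intensity limits what Bak1 and Pmaip1 can show.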

Other observations

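Among hemizygous tumors, replicates 1 and 2 were higher than 3 and 4 in Bcl2 (176 and 171 against 90.2 and 79.9) and in Pmaip1 (21.8 and 17.9 against 6.89 and 7.65), whereas Mdm2, Mcl1 and Bbc3 did not follow these numbers. Wild-type ganglia 1 and 2 did not overlap 3 and 4 in Mdm2, Bcl2 and Mcl1. The 2 pairs of ganglia also differed in Acta1, at 1042 and 529 against 16.02 and 7.1, while in hemizygous tumors Acta1 was high in the third only, at 2390.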
